A study of Mus musculus with 8 samples.

Results

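The 3010 regions described here are stretches of cortical chromatin where peaks of methylated lysine 4 of histone H3 (H3K4me) lay over the whole stretch in both Prdm16 mutant libraries and over less than 50% of it in each control library, with some control coverage in at least 1 of them. They were found among 71404 intervals of 200 bp or more on chromosomes 1 to 19 that both mutant libraries covered, so 4.22% of these intervals met the rule. The regions were chosen by the measured peak coverage of all 4 libraries. Any difference in coverage, width or peak strength between the genotypes is therefore given as a description, without a test, and supports nothing. With the genotypes exchanged, the same rule found 360 regions widened in the controls, 0.594% of 60604 intervals.

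Lysates of the whole cortex of E15.5 mouse embryos were profiled by native ChIP-seq, in which chromatin cut with micrococcal nuclease is pulled down with an antibody and the recovered DNA is sequenced. The 2 control libraries (WT in the labels) came from Prdm16 flox/flox embryos, with no Cre named, and the 2 mutant libraries (cKO) from Emx1Ires-Cre; Prdm16flox/flox embryos, so both genotypes carry the floxed alleles. The labels do not say how many embryos went into a library, and the spread between replicates may be technical. Emx1-Cre acts in the progenitors of the dorsal telencephalon and their descendants, so interneurons, microglia and vessels of a whole cortex keep Prdm16. The read depth is unknown.

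Prdm16 encodes a zinc-finger regulator of transcription expressed in radial glia, the stem cells from which cortical neurons arise. Monomethylated H3K4, the form for which the antibody is catalogued, marks enhancers and the flanks of promoters. At active promoters, above all those rich in CpG dinucleotides, the nucleosomes next to the gene start usually carry the trimethylated form and the monomethylated form lies on either side, which leaves a dip at the start. A broad-peak caller joins nearby enriched stretches, so a peak can widen because an edge moves outward or because a dip between pieces is filled. The rule uses covered shares and not peak widths, so a region can also meet it where peaks are shifted.

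The libraries carried the mark at genes of the labelled tissue. Over loci of defining markers (the gene and 10 kb on either side), the median covered share was 51.4% to 59.6% across the 4 libraries for radial glia and 56.9% to 72.5% for projection neurons, against 3.83% to 5.06% for microglia and 0.890% to 3.04% for erythroid cells. The lists held between 65740 and 81447 peaks on chromosomes 1 to 19. They covered 129 and 113 Mb in WT replicates 1 and 2, and 147 and 165 Mb in cKO replicates 1 and 2. How far the larger called area of the cKO libraries accounts for the widened regions was not tested, and the counts with equal peak numbers and equal covered length are given at the end.

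Of the regions on chromosomes for which the table of gene starts has entries, 417 of 2900 (14.4%) held an annotated gene start. Among all intervals of 200 bp or more common to the cKO libraries there, 7175 of 68863 (10.4%) held one. Sequences at some of the starts in widened regions are shown first, because the WT coverage around starts is described below. The 4 runs below are the 250 bases before a start in 4 of the 5 longest regions that hold one, for Zeb2 the first of its 3 starts by coordinate, from RefSeq on GRCm38.p6, each printed 5′ to 3′ on the strand of its gene, with every CG dinucleotide in capitals. They lie at chr2:45113254-45113503 (minus strand, Zeb2), chr15:78842397-78842646 (plus strand, Cdc42ep1), chr5:134688591-134688840 (minus strand, Limk1) and chr8:11779034-11779283 (plus strand, Arhgef7).
Zeb2: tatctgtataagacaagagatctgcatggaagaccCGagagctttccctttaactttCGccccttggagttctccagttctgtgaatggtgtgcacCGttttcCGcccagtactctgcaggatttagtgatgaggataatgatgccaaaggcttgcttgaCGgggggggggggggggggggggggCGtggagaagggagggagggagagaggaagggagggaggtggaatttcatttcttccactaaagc
Cdc42ep1: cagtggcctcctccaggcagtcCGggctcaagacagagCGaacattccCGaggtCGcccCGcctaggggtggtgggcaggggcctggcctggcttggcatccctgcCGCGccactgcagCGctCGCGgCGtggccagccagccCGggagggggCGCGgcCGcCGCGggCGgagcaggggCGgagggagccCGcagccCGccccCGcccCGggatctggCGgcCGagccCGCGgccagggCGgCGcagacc
Limk1: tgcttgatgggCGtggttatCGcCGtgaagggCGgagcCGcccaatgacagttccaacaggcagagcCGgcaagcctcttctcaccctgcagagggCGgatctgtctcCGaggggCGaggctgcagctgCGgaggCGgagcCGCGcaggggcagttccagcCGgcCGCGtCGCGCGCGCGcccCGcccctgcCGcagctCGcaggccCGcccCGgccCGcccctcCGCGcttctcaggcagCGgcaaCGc
Arhgef7: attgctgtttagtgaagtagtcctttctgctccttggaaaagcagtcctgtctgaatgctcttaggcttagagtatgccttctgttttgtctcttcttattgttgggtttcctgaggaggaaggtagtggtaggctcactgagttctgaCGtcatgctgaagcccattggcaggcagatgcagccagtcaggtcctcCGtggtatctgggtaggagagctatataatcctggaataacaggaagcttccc

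The Limk1 and Cdc42ep1 runs are dense in CG, with 31 and 29 in 250 bases and GC shares of 73.6% and 79.2%. Zeb2 and Arhgef7 have 6 and 2, with GC shares of 54.0% and 48.0%. All 4 runs lay wholly under peaks in both cKO libraries. At Limk1 no base of the run lay under a peak in either WT library. At Cdc42ep1 all 250 bases were covered in WT replicate 1 and 0 in replicate 2, at Zeb2 76 and 0, and at Arhgef7 all 250 in both. Of the runs not printed, the second Zeb2 start had 102 and 0, the last Zeb2 start 10 and 164, and the start in the fifth region (Gm20190) 250 and 0. The start at Arhgef7 is thus an example of a widened region whose start was already covered in the controls.

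Limk1 encodes a kinase that phosphorylates the actin-severing protein cofilin. Its region (chr5:134684086-134689661, 5576 bp) was covered to 27.7% in WT replicate 1, by 2 peaks, and to 9.43% in WT replicate 2, by 1 peak of 526 bp. A single peak of 5877 bp in cKO replicate 1 and of 5576 bp in cKO replicate 2 spanned it. The rule sets 1 spanning peak in each cKO library for every region. Cdc42ep1 encodes an effector of the small GTPase Cdc42. WT replicate 1 had 3 peaks in its region (chr15:78839361-78846190, 6830 bp) and WT replicate 2 had 2, with 48.9% and 34.1% covered, where each cKO library had 1.

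Zeb2, a zinc-finger homeobox repressor that acts in the migration and fate of cortical neurons, held a region of 6896 bp (chr2:45111477-45118372) with 3 annotated starts. WT replicates 1 and 2 covered 46.4% and 48.7% of it, each with 2 peaks, at most 2655 bp wide. The cKO libraries had 1 peak each, of 6896 and 7285 bp. At Arhgef7, which encodes a guanine nucleotide exchange factor for Rac and Cdc42, the region of 6554 bp (chr8:11774543-11781096) was covered to 38.0% and 49.97% in the WT libraries. The last of the 5 (chr6:126764121-126770760, 6640 bp) held the start of Gm20190, 23286 bp from the coding gene Kcna6, with 48.1% and 38.3% covered in WT. In all 5 each cKO library had a single peak, because by the rule a region lies under 1 peak of each cKO library. Only the numbers of WT peaks are therefore observations. Both WT libraries had at least 2 peaks at Zeb2, Cdc42ep1 and Gm20190, while at Limk1 and Arhgef7 one of them had 2 and the other 1.

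**Figure D1:**
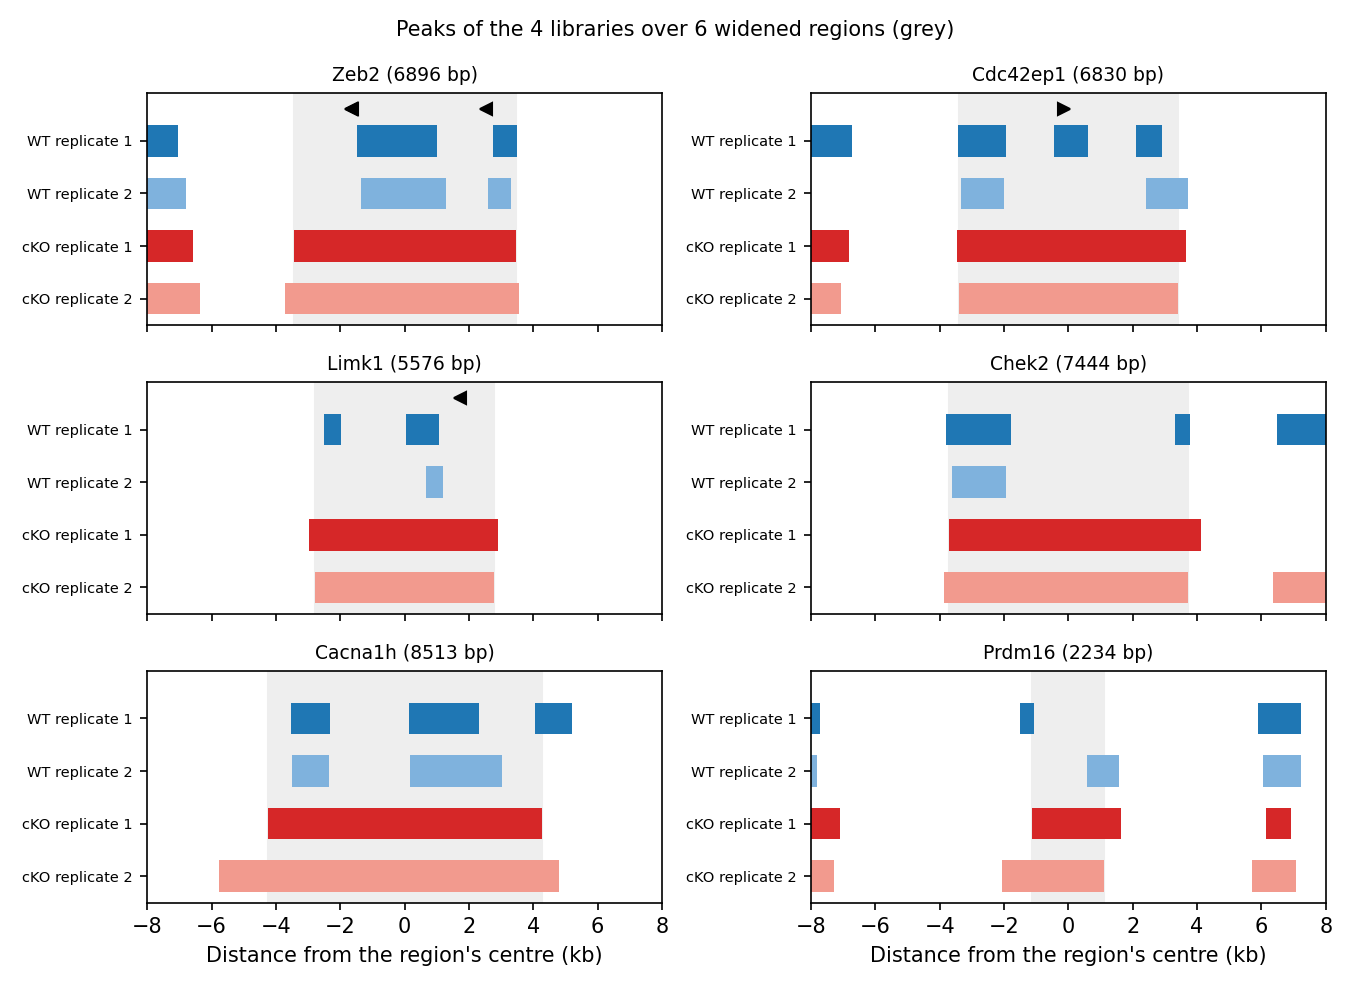
Peaks of WT replicates 1 and 2 (blue) and cKO replicates 1 and 2 (red) over 6 widened regions, each named by the coding gene at its midpoint; the x axis is the distance from the region's centre in kb, bars are peaks, grey is the region and triangles are annotated gene starts pointing in the direction of transcription. At Zeb2, Cdc42ep1 and Cacna1h the WT libraries had 2 or 3 peaks inside the stretch that 1 peak covered in each cKO library. The single cKO peak is set by the rule in every region.

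In the regions that hold a start, the start itself was mostly uncovered in the WT libraries, a description of regions chosen for low WT coverage. Among the 566 start positions inside widened regions, 9.54% were under a peak at the start itself in WT replicate 1 and 6.71% in WT replicate 2, where these libraries covered 33.2% and 28.8% of the bases of the 417 regions that hold a start. WT coverage was highest 1100 bp downstream of the start, at 50.2% and 44.7%, and had a lower maximum upstream, 23.9% at 800 bp in replicate 1 and 20.7% at 900 bp in replicate 2. In the cKO libraries the start is at 100% because the regions were selected on cKO coverage, and 1100 bp downstream they stood at 71.9% and 72.3%. Positions this far from a start can lie outside the region, where the rule sets no limit on WT. Taken over positions inside the start's own region alone, WT coverage was 67.5% and 63.0% at 1100 bp downstream (378 positions) and 43.2% and 36.8% at 800 bp upstream (280 positions). Both WT libraries thus had the same shape, with the dip at the start and the larger shoulder downstream.

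At 8821 starts in the other intervals common to the cKO libraries there was no dip in the WT average, with 86.6% and 77.4% of starts covered in WT replicates 1 and 2. Most of these intervals are there because a WT library covered 50% or more of them. The dip came back with the genotypes exchanged. At the 35 starts in regions widened in WT, cKO replicates 1 and 2 covered 11.4% and 14.3% of starts, and 51.4% and 45.7% at 900 bp downstream. The same form around the start was thus found in both directions. Of 300 widened regions with exactly 1 start on 1 strand, 182 (60.7%) had WT peak bases only downstream of it, 83 (27.7%) on both sides and 35 (11.7%) only upstream. In 38 of the 300 the start base itself was under a WT peak.

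**Figure D2:**
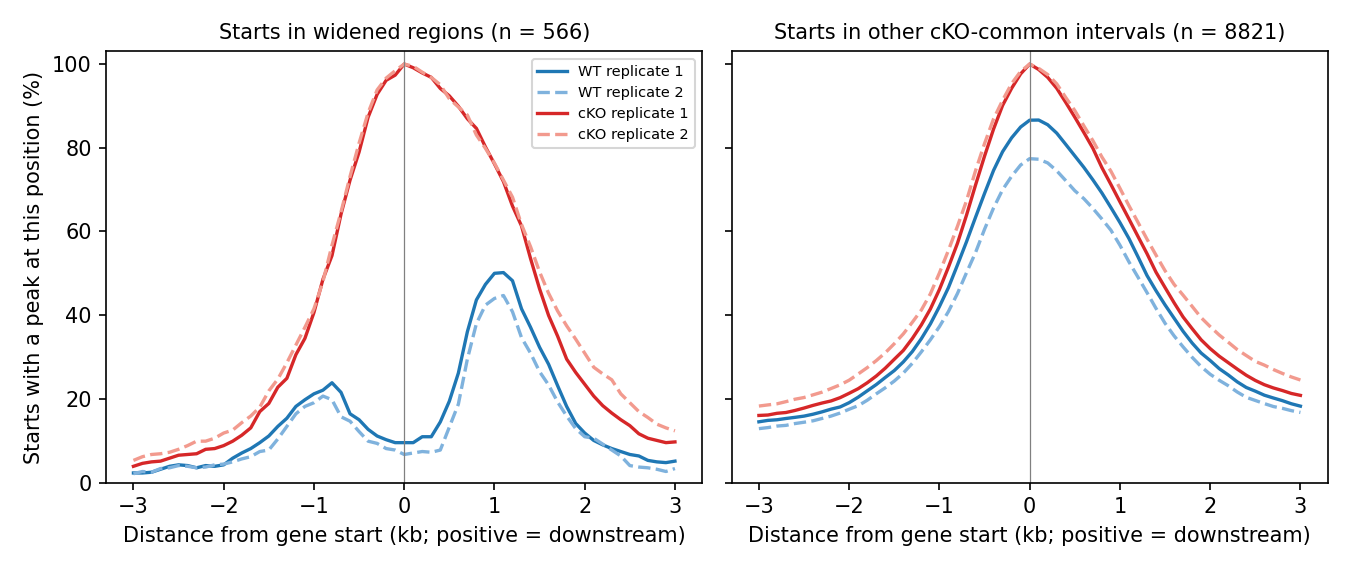
Percent of gene starts with a peak at each position from 3 kb upstream to 3 kb downstream, for WT (blue) and cKO (red) libraries, replicate 1 solid and replicate 2 dashed; left, 566 starts in widened regions; right, 8821 starts in other intervals common to the cKO libraries. On the left the WT curves fall to 9.54% and 6.71% at the start and reach 50.2% and 44.7% at 1.1 kb downstream, while both cKO curves are at 100% at the start by the choice of regions.

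Across the genome, the share of covered starts was also taken in each library over starts with peaks within 2 kb on both sides. With all start positions, 78.8% of 11734 such starts were covered in WT replicate 1 and 78.5% of 10071 in WT replicate 2, against 81.2% of 13127 in cKO replicate 1 and 85.6% of 13746 in cKO replicate 2. Without the starts in widened regions the shares were 79.4%, 79.1%, 80.3% and 85.0% in the same order. Leaving these out takes away starts that were uncovered in WT and covered in cKO, so neither set is independent of the rule and neither was tested. The cKO libraries lay above both WT libraries in each set, and cKO replicate 1 was nearer to the WT libraries than to cKO replicate 2.

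The sequence around the starts, which the rule did not use, was rich in CpG. In the 300-base windows at starts inside widened regions (250 bases before to 50 after) the median ratio of observed to expected CpG was 0.801, and 74.6% of windows were above 0.6. The other starts in cKO-common intervals had 0.645 and 55.0%, and starts in no such interval 0.285 and 27.9%. Median GC share was 60.8%, 59.3% and 50.3% in the same order. Regions widened in WT had similar starts, with a median of 0.785 and 77.1% above 0.6 over 35 windows. The 120 starts in cKO-common intervals without any WT peak base had 0.507 and 38.3%, so those starts were poorer in CpG than the starts of the widened regions.

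**Figure D3:**
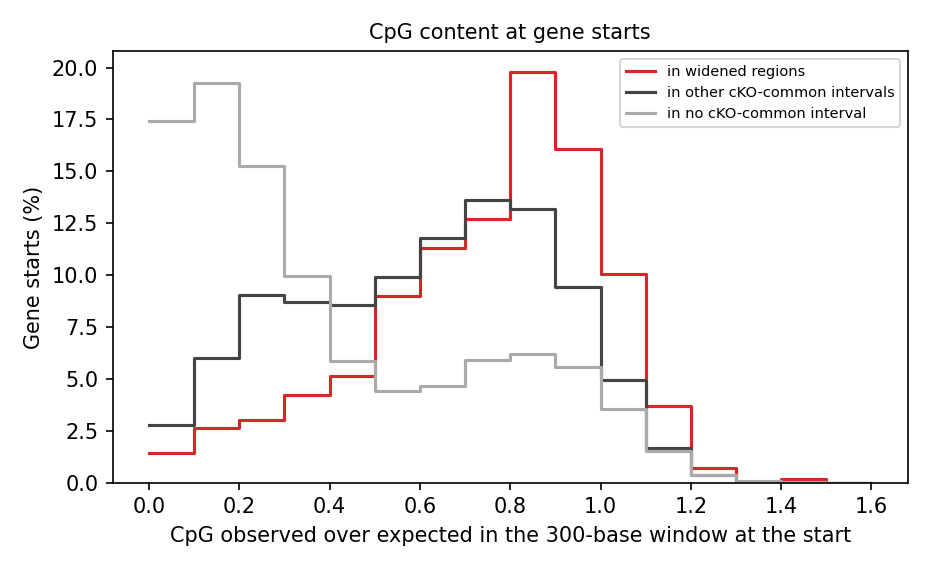
Distribution of the observed over expected CpG ratio (x axis) in 300-base windows at gene starts, in percent of the starts of each set (y axis, bins of 0.1), for starts in widened regions (red), in other cKO-common intervals (dark grey) and in no cKO-common interval (light grey). The red curve lies to the right of both grey curves, with medians of 0.801, 0.645 and 0.285.

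Motifs were searched on both strands of the same windows, and a match is only the presence of the letters. The E-box CANNTG, bound by bHLH factors such as the proneural proteins, was in 58.7% of the 566 windows, 69.3% of the other cKO-common starts and 72.2% of all starts. Its forms CAGATG and CAGCTG, which are contained in it, were in 11.3% and 15.2% of windows, against 14.5% and 18.3% of the other cKO-common starts and 17.2% and 16.3% of all starts. The NFI core motif TTGGC was in 50.7%, against 50.04% of the other cKO-common starts and 46.7% of all starts, and the full NFI palindrome in 0, 0.068% and 0.0383%. The remaining motifs were less frequent than in either set, given here in the same order. The SOX motif ACAAAG was in 13.3%, 15.6% and 18.6%, and the RBPJ motif TGGGAA in 18.4%, 25.2% and 25.3%. The AP-1 motif TGANTCA was in 3.71%, 5.46% and 7.85%, the homeodomain motif TAATTA in 2.65%, 3.8% and 5.27%, and the POU motif ATGCAAAT in 0.707%, 1.6% and 1.75%. The windows also differ in base composition, and how far that sets these shares was not tested.

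Hairpins of 5 microRNAs lay in widened regions, of 177 in any cKO-common interval. This is not above the 4.22% of all cKO-common intervals that were widened regions, so the count marks nothing particular to microRNAs. Mir181a-1 and Mir181b-1 shared a region of 3459 bp (chr1:137963711-137967169), with 38.7% and 39.8% covered in WT replicates 1 and 2. Their mature 5p forms, from RefSeq on GRCm38.p6, are shown with the seed (bases 2 to 8) in capitals because both have the same seed.
mmu-miR-181a-5p: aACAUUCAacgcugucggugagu
mmu-miR-181b-5p: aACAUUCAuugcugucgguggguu
The other hairpins were Mir7243, Mir6387 and Mir7648, in regions of 4845, 4139 and 2380 bp with WT coverage between 30.3% and 42.8%.

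Most regions held no gene start. The midpoint was in a protein-coding gene in 1944 of 3010 regions (64.6%), compared with 59.8% of all cKO-common intervals and 54.6% of those with no WT peak base. Starts lay in widened regions at 120 per Mb, against 76.7 per Mb in cKO-common intervals with 50% or more in a WT library, 40.8 per Mb in those with no WT peak base and 101 per Mb in regions widened in WT. By share of regions the directions differed. A start was held by 26 of 348 regions widened in WT (7.47%), below the 9.03% of all WT-common intervals. For regions widened in cKO the shares were 14.4% against 10.4%. These are counts over regions of 1 set of libraries and were not tested. Of the 1066 regions outside coding genes, 237 were within 10 kb of a gene and 544 over 50 kb away. The gene table has no exons, so exons and introns were not told apart.

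The median region was 1373.5 bp long, between 209 and 8526 bp, and the quartiles were 796 and 2234 bp. All cKO-common intervals had a median of 1176 bp, and those with no WT peak base 452 bp. Among cKO-common intervals of 200 to 500 bp, 3.06% were widened regions, rising to 5.99% of those of 2000 to 4000 bp and falling to 1.94% from 4000 to 8000 bp. The stretch under no WT peak had a median of 849 bp per region (quartiles 462 and 1401 bp) and amounted to 3.00 Mb in all. By chromosome the share ran from 3.71% of cKO-common intervals on chromosome 11 to 5.02% on chromosome 15. Neighbouring regions were mostly far apart, with a median of 387 kb between midpoints and 64 of 2991 neighbouring pairs within 10 kb.

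Partial coverage came from both WT libraries in 1412 regions (46.9%), from WT replicate 1 alone in 1124 and from WT replicate 2 alone in 474. The regions touched in both were longer (median 2161 bp, against 877.5 and 888.5 bp) and more often held a start (23.3%, against 6.85% and 5.84%). Where both WT libraries touched a region, their peaks shared 62.5% of the bases that either covered. In 1275 regions the larger WT share was between 40% and 50%, and in 67 it was under 10%, so most regions lay toward the upper limit. Just inside the limit stood Arhgef7 at 49.97%, a region 196712 bp from Stt3b at 49.96% and one in Spc24 at 49.96%. Just outside it were 3 intervals at 50%, near Sec61g and in Nup153 and Ctnnd2.

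**Figure D4:**
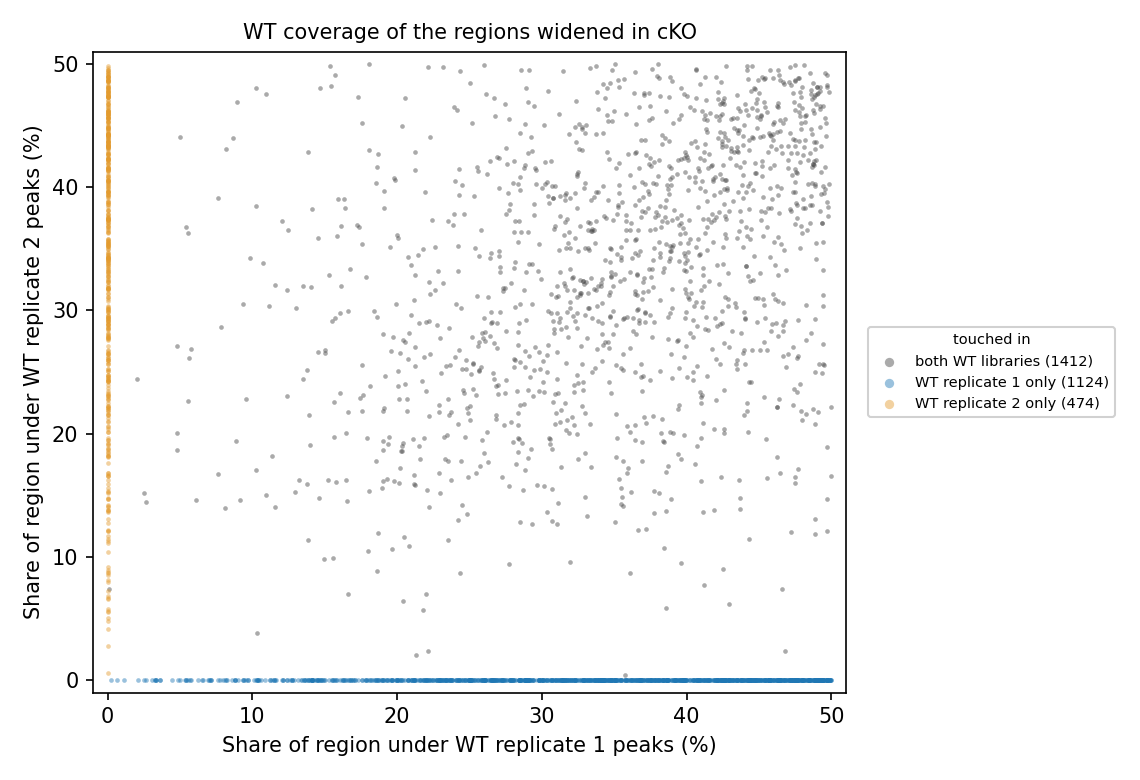
Each point is 1 of the 3010 widened regions, placed by the share of its length under peaks of WT replicate 1 (x axis, %) and WT replicate 2 (y axis, %); colours mark the libraries that touched it. The 1124 regions on the horizontal axis and the 474 on the vertical axis had coverage in a single WT library, and the 50% limit of both axes is set by the rule.

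The regions fell into 3 forms by where the WT peaks of either library lay. In 1920 regions (63.8%) they reached 1 edge of the region, in 976 (32.4%) they lay inside with both edges bare, and in 114 (3.79%) they reached both edges with a gap between. A start was held by 13.6%, 13.9% and 31.2% of these, in the same order, the last from 34 regions. Their median lengths were 1133, 1557 and 2499.5 bp, and how far length sets the shares with a start was not tested. WT coverage was a single piece in 2661 regions, 2 pieces in 338 and 3 in 11. A WT peak that reaches an edge can run past it and be wider than a cKO peak. In a Tenm2 region of 1499 bp (chr11:36658096-36659594) the WT replicate 2 peak was 5125 bp wide. The peaks of cKO replicates 1 and 2 were 8309 and 1499 bp wide there. How many regions are shifts of this kind was not tested. No 2 peaks of a list lay closer than 1269 bp (WT replicate 1), 1301 bp (WT replicate 2), 1313 bp or 1357 bp (cKO replicates 1 and 2). A gap between peaks of 1 list is therefore never shorter than this, here and over the whole list.

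Peaks over the regions were weaker than the average peak of their own list. Fold enrichment as the authors' caller gave it had a median of 3.74 for the 2784 WT replicate 1 peaks that touched a region, against 4.16 for all its peaks, and 3.44 against 3.72 in WT replicate 2. In cKO replicates 1 and 2 these medians were 3.65 against 4.0 and 3.53 against 3.82. The median −log10 q was 2.93 and 2.42 in the WT lists and 3.33 and 3.12 in the cKO lists. WT peaks touching a region had median widths of 584 and 602 bp, where cKO peaks had 1625 and 1840 bp, a difference that the rule itself selects.

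The longest region, 83512 bp from Arap3 (chr18:38083044-38091569, 8526 bp), had 43.0% and 42.4% covered in WT replicates 1 and 2, by 2 peaks each. The next, in the T-type calcium channel gene Cacna1h (chr17:25425999-25434511, 8513 bp), had 42.2% and 47.1%. A region in Pcdh10, a protocadherin gene (chr3:45379183-45387019, 7837 bp), had 44.1% and 36.0%, but the WT libraries covered different parts of it and together left only 2231 bp bare. The most bare bases, 5093, were in a region in the checkpoint kinase gene Chek2 (chr5:110867863-110875306, 7444 bp), with 31.6% and 22.5% covered. A region 125486 bp from Ppp4r2 (chr6:100995421-101001223, 5803 bp) followed with 4937 bare bases, and had the thinnest WT coverage of these, 14.9% and 9.82%. Other long regions lay 46370 bp from Lrpap1 (8394 bp), 279260 bp from Sall1 (7698 bp), in Pde7a (7154 bp) and 78871 bp from Gm29958 (6815 bp), with WT shares between 25% and 48.5%.

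Long genes held the most regions. A midpoint lay in 1634 of 20665 coding genes, of which 1379 had 1 and 63 had 3 or more. Sema6d, a transmembrane semaphorin that guides axons, had 6 regions among its 36 cKO-common intervals. The WT libraries had 54.8 and 47.6 kb of its locus under peaks, and the cKO libraries 74.7 and 78.5 kb. Its longest region (chr2:124495516-124498195, 2680 bp) was covered to 41.9% and 13.8% in WT. Of its 6 regions, 3 were touched by a single WT library.

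Sox5, a SOXD factor that governs deep layer neuron identity, had 5 of 87 intervals, with 194 and 177 kb covered in WT and 245 and 254 kb in cKO. Tenm2 (5 of 83) and Tenm4 (5 of 83) encode teneurins, adhesion proteins that bind latrophilins. Another 17 genes had 4 regions each, and the 6 of these with the most bases in regions were Cacna2d2 (an auxiliary calcium channel subunit, 4 of 15), Dab1 (the Reelin adaptor, 4 of 97), Slc10a7 (4 of 12), Pard3b (a polarity protein, 4 of 40), Anks1b (a synaptic scaffold, 4 of 42) and Robo1 (a Slit receptor, 4 of 39). Both cKO libraries had more kb of the locus under peaks than both WT libraries in 9 of these 10 genes, which the choice of regions favours, and in 69.3% of all 2313 coding genes of 100 kb or more. In Cacna2d2 the genotypes overlapped (48.8 and 42.0 kb in WT, 48.7 and 57.0 kb in cKO). Smurf1, a ubiquitin ligase that acts on SMAD signalling, was the only gene under 100 kb with 3 regions, with 12.8 and 6.73 kb covered in WT and 20.3 and 24.6 kb in cKO.

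Counts per gene followed gene length. The share of coding loci with at least 1 region rose from 5.28% for genes under 20 kb to 54.4% for those of 400 kb or more. The regions' share of the cKO-common intervals in these loci was 3.97% and 4.38%, near the 4.36% over all coding loci.

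In the targeted gene, Prdm16, 1 of 22 intervals was a widened region (chr4:154480775-154483008, 2234 bp), with 2.06% and 24.4% covered in WT replicates 1 and 2. The WT peaks lay at opposite edges, did not overlap and ran past the region. Of their 430 and 1007 bp, 46 and 546 bp lay inside. All peaks here were weak, with −log10 q of 2.56 and 1.56 in WT and 2.29 and 2.57 in cKO. Pdzrn3, a ubiquitin ligase gene repressed by PRDM16 according to published work, had 3 of 24 intervals. Each of these was touched by a single WT library: a region of 798 bp by replicate 2 (44.9%), and regions of 1400 and 997 bp by replicate 1 (40.9% and 32.8%). The stem cell and progenitor factors Sox2, Pax6, Eomes, Neurog2, Hes1 and Hes5 and the neuronal factors Tbr1, Bcl11b and Cux2 had 0 regions in their loci. These 9 loci held 46 cKO-common intervals in all, 24 of them at Cux2, so 0 is little below what a share of 4.36% would give. At Sox2 the WT libraries covered 20.9 and 19.6 kb of the 22.5 kb locus and the cKO libraries 20.9 and 20.8 kb.

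Gene lists were read in the same way, by loci with a region and by the share of cKO-common intervals that were regions, against 10.8% of all 20665 coding loci and 4.36% of their intervals. Radial glia genes had a region in 7 of 26 loci (4.89% of 225 intervals), led by Pdzrn3 and the nuclear factor Nfia with 3 each. Intermediate progenitor genes had 0 in 17 loci, out of 56 intervals. Newborn projection neuron genes had 5 of 17 loci (7.46% of 134 intervals), with Map2, a dendritic microtubule protein, at 3 and the netrin receptor Unc5d at 2. Upper layer genes had 3 of 17 loci (2.95% of 237), with Cdh13 at 4 and Cux1 at 2, and deep layer genes 7 of 17 (4.25% of 306), with Sox5 and Zfpm2. The median number of regions per locus was 0 in all of these lists, as over all coding genes.

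Genes of axon guidance and migration had a region in 14 of 22 loci (5.63% of 533 intervals, median 1 per locus), led by Dab1 and Robo1, and synapse and ion channel genes in 9 of 19 (6.64% of 286). In the latter the vesicle calcium sensor Syt1 had 4 of 16 intervals, with 15.4 and 13.3 kb covered in WT and 29.3 and 30.4 kb in cKO, and the calcium channel Cacna1e had 3. The median span of these lists was 398 and 494 kb, against 17.5 kb over all coding genes. Cajal-Retzius genes had 3 of 11 loci (7.08% of 113), with Cacna2d2 and Reln, and cortical interneuron genes 3 of 16 (6.38% of 47), with Nkx2-1 and Dlx5 among them. Cell cycle genes had 3 of 19 (6% of 50), with Cdk6 and Pcna, and chromatin regulators 3 of 22 (4.39% of 114), with Mecom at 3 and Kmt2c.

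The Notch list had 3 of 20 loci (2.38% of 126; Maml3 and Notch3), the Wnt list 2 of 20 (1.47% of 136; Wnt7a and Tcf7l2) and the BMP and TGF-beta list 3 of 20 (2.56% of 117; Tgfb2 and Bmpr2). Their shares of loci, 15%, 10% and 15%, stood near the 10.8% of all coding loci, and their shares of intervals, from so few regions, under 4.36%. Brown fat genes had 2 of 13 (3.28% of 61; Ppargc1a and Ppargc1b) and housekeeping genes 1 of 13 (3.70% of 27; Tbp). Oligodendrocyte precursor and astrocyte genes had 0 of 13 loci, out of 41 intervals. Beside the interneuron genes above, other lists of cell types outside the Emx1 lineage had from 0 to 3 regions. Endothelial genes had 0 of 36 intervals, erythroid genes 0 of 12, and muscle and liver genes 0 of 11. Meningeal genes had 1 of 10 loci (4.76% of 21; Foxd1) and microglia genes 3 of 12, among them P2ry12 and C1qa, out of 15 intervals (20%).

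In 3 genes of the lists the region held the gene start. Wnt7a, a ligand that radial glia secrete, had a region of 3668 bp (chr6:91408803-91412470) with 42.7% and 43.3% covered in WT. Pcna, the DNA polymerase clamp of dividing cells, had one of 2756 bp (chr2:132251146-132253901) with 39.9% and 27.1%. P2ry12, a purinergic receptor of microglia, had one of 854 bp (chr3:59262133-59262986) with 45.3% and 27.4%. The 3 regions were touched in both WT libraries.

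The number of regions depended on how much was called, and its direction did not turn in the settings run. With equal numbers of peaks per library (65740) 1963 regions were widened in cKO and 375 in WT. With lists trimmed to equal covered length the counts were 801 and 291. The trimming kept 56564 and 65740 peaks in WT replicates 1 and 2, and 46689 and 40196 in cKO replicates 1 and 2. The cKO lists thus held fewer peaks over about the same length, and what this does to the counts was not tested. The share of cKO regions that held a start was 18.5% with equal numbers and 24.1% with equal length, where 11.8% and 12.8% of all cKO-common intervals held one. The median region was longer in these settings, 1771 and 2293 bp against 1373.5 bp as reported. How far length sets the shares with a start was not tested. Single libraries moved the counts too: without WT replicate 1 or 2 there were 5842 or 4600 regions widened in cKO and 1064 or 1852 in WT, and without cKO replicate 1 or 2 there were 8661 or 5124 and 1366 or 985. Without WT replicate 1, 1886 of the 3010 regions still touched a region, and without WT replicate 2 there were 2536, because a region needs some coverage in the WT library that remains. Of the 3010 regions, 615 touched a region of the same kind with stricter peaks, equal numbers and equal length, and 831 under none of the 3. Zeb2, Cdc42ep1, Chek2, Cacna1h and Arhgef7 were among the 615, while the Limk1 region touched one in 2 of the 3 and the Prdm16 region in 1. Of the 3 Pdzrn3 regions 1 was among the 615 and 2 among the 831, which also held 1 region each of Sema6d and Sox5 and 1 of Tenm2.

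**Figure D5:**
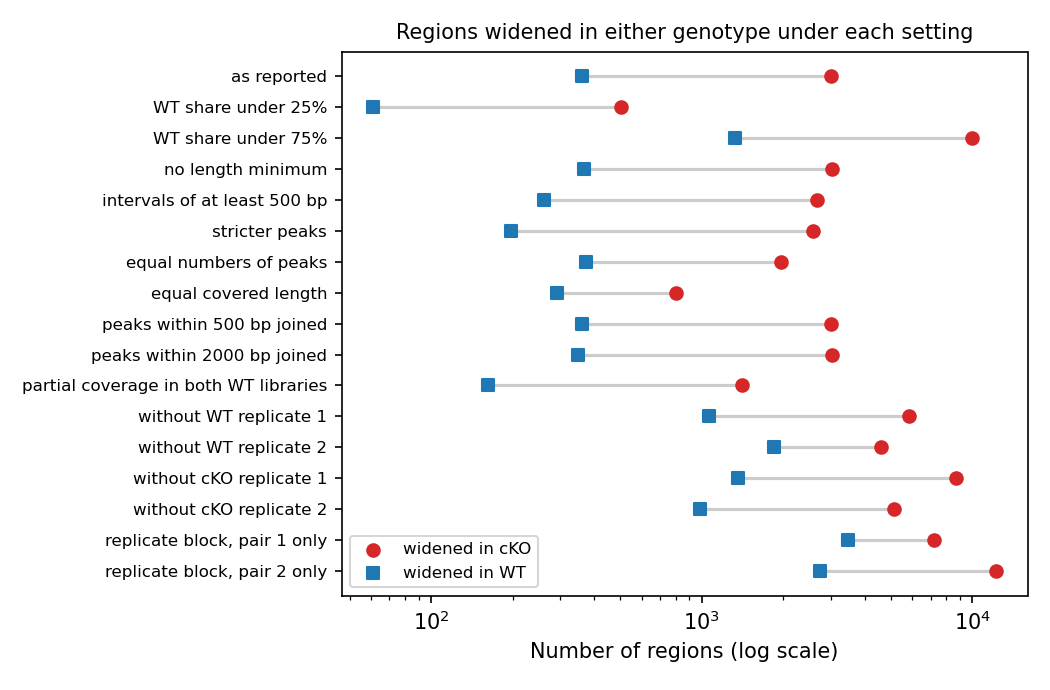
Number of regions widened in cKO (red circles) and in WT (blue squares) under the rule as reported and under each other setting, on a logarithmic x axis. The red circle lies to the right of the blue square in every setting drawn, and the distance is smallest for the libraries with replicate number 1 alone (7189 and 3480).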

How the data were processed

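Each H3K4me ChIP library has its own broad-peak list on mm10, deposited by the authors. The submitters' processing notes name MACS2 2.1.1, Bowtie2 2.2.8, cutadapt and FastQC. How peaks were called, and whether the inputs served as background, is not given in the sources used here. A deposited line holds coordinates, a score (not used), the fold enrichment (a ratio) and −log10 values of p and q, as the authors' caller wrote them. The lists hold no reads, so depth and counting error are unknown; a deeper library or better precipitation gives more and wider peaks. Input libraries were not analysed here.

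Peaks on chromosomes 1 to 19 were merged per list. The cKO lists were intersected, and intervals of at least 200 bp with under 50% covered in each WT list and above 0 in 1 of them were kept. Interval code (Python 3.11.15, numpy 2.4.6, pandas 2.3.3) was checked against base-by-base counting on simulated data and gave the same regions count as bedtools 2.31.1. Genes (20665 coding, unique symbol) and starts (31365 positions, none on chromosome 18 in the table used, where 110 regions lie) came from RefSeq on GRCm38.p6, the assembly of mm10. A locus is a gene and 10 kb on either side; loci overlap, so a region can count for several genes. No test was run, because the rule uses the contrast between genotypes. Medians and shares of regions are descriptions. The regions, the 22 gene lists and the comparisons were chosen with earlier results of these data known; the start, CpG-ratio, joining and replicate-pair analyses were added after seeing the data. Genes and regions named are the 10 longest regions, the 5 with most bases bare in WT, the 3 on either side of the 50% limit, the 10 genes with most regions (ties by bases in regions), the densest genes, 12 genes always given (1 is not reported here), up to 2 per list, and the 5 longest regions with a start. Figures used matplotlib 3.10.9.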

Additional observations from a re-analysis of the deposited data

How the results depend on the processing

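Regions widened in cKO outnumbered those widened in WT in all 16 other settings run. The cKO and WT counts were 503 and 61 with a limit of 25% on the WT share, 9979 and 1332 with 75%, 2583 and 198 with stricter peaks (−log10 q of at least 2), 1963 and 375 with equal numbers of peaks, 801 and 291 with equal covered length, and 1412 and 163 with coverage required in both partly covered libraries. With 1 library left out they ran from 4600 to 8661 and from 985 to 1852. The share with a midpoint in a coding gene, 64.6% as reported, was 62.0% with the 75% limit, 67.1% with equal numbers, 68.2% with equal length and 69.5% with both WT libraries required, and 62.0% to 65.8% with 1 library left out. Median length, 1373.5 bp as reported, was 1462 bp with the 25% limit, 1153 bp with 75%, 1534 bp with a 500 bp minimum, 1610 bp with stricter peaks, 1771 bp with equal numbers, 2293 bp with equal length, 2161 bp with both WT libraries required and 1662.5 bp with peaks within 2000 bp joined (a setting added after seeing the data), and 1452.5 to 1824 bp with 1 library left out. Other than the 500 bp minimum, where the construction sets it, the cause of these shifts was not tested. Joining peaks within 500 bp changed nothing, since no peaks lay that close. The share of regions that held a start was between 10.8% (75% limit) and 24.1% (equal length). In these 2 settings 10.4% and 12.8% of all cKO-common intervals held one. With the rule applied to same-numbered libraries only (replicate pairing, added after seeing the data), pair 1 gave 7189 and 3480 regions, a share in genes of 62.8% and a median of 1613 bp, and pair 2 gave 12250 and 2732 regions, a share of 63.9% and a median of 2075 bp. The labels do not say that the numbers mark a shared origin, and no paired test was run. The unknown depth limits every count.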
